A study of Mus with 96 samples.

Results

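Triglyceride synthesis and VLDL assembly in mouse liver were followed here through 9 genes chosen by name: Gpam, Agpat2, Lpin1, Lpin2, Dgat1, Dgat2, Mogat1, Mttp and Tm6sf2. Each name matched a single row among the 55487 genes of the count table, and all 9 were among the 15548 genes tested, those whose counts added up to 100 or more across the 96 livers. Mogat1 passed that filter with few reads.

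Hepatocytes build triglyceride from glycerol 3-phosphate by adding fatty acyl chains in turn. Gpam, the mitochondrial glycerol-3-phosphate acyltransferase, makes lysophosphatidic acid, and Agpat2 acylates it to phosphatidic acid. The phosphatidate phosphatases Lpin1 and Lpin2 remove the phosphate to give diacylglycerol, which Dgat1 or Dgat2 acylates to triglyceride, while Mogat1 reaches diacylglycerol from monoacylglycerol. Mttp, the lipid-transferring subunit of the microsomal triglyceride transfer protein, loads triglyceride onto apolipoprotein B, and Tm6sf2, a membrane protein of the endoplasmic reticulum and Golgi, takes part in filling very-low-density lipoprotein (VLDL) with lipid. The liver clock, in which Bmal1 (Arntl) is the partner of Clock and Npas2, is known for imposing daily rhythms on lipid metabolism.

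The series measured 3′-end mRNA counts by BRB-seq, which tags each sample's RNA with a barcode and sequences the pool, in 96 livers, 1 library a mouse. Hep-Bmal1KO mice carried AlbCre/+ and Bmal1flx/flx, so that Cre recombinase, driven by the albumin promoter, deleted Bmal1 in hepatocytes and left the other liver cells with the gene, and Hep-Bmal1WT littermates carried Alb+/+ and Bmal1flx/flx, the same floxed alleles without Cre. All were on a C57BL/6J background, 8 to 10 weeks old, under 12 hours of light and 12 hours of dark, and received either normal chow (NC) or, as cdHFD, a high-fat diet lacking choline, given to induce metabolic dysfunction-associated steatohepatitis, for 2 weeks. Each genotype and diet held 24 mice, 4 at each zeitgeber time (ZT; hours after lights on) 2, 6, 10, 14, 18 and 22, with 2 males and 2 females at each time except in Hep-Bmal1WT on cdHFD at ZT14, which held 3 males and 1 female.

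Libraries held 1861740 to 9718615 counts assigned to genes, with a median of 6412078.5. Arntl counts did not check the deletion, and where its 3′ tags lie relative to the floxed part was not examined. Its CPM (counts scaled to library size, TMM-normalized) ranged from 0.21 to 26.1 (median 7.21) in Hep-Bmal1WT and from 0.253 to 13 (7.55) in Hep-Bmal1KO on NC. On cdHFD it ranged from 0.256 to 23 (7.17) and from 1.89 to 12.3 (5.7). By both the clock genes and 20 other genotype-dependent genes, 7 libraries lay nearer to the other genotype than to their own label (discordant libraries): 2 of Hep-Bmal1WT on NC (ZT6 replicate 2, ZT18 replicate 4), 2 of Hep-Bmal1KO on NC (ZT6 replicate 4, ZT10 replicate 3), 2 of Hep-Bmal1WT on cdHFD (ZT10 replicate 3, ZT14 replicate 1) and 1 of Hep-Bmal1KO on cdHFD (ZT14 replicate 1). Replicate numbers only name livers: the labels give none, and they were assigned in accession order within each group. The discordant libraries stayed under their labels, and results that rest on them are given with and without them. On NC, the discordant Hep-Bmal1WT library at ZT18 and the discordant Hep-Bmal1KO libraries came from females, and the tests in females alone kept them. They were picked by genotype-dependent expression in these same data, so leaving them out can itself widen genotype differences. Smaller p-values without them are therefore not independent support. The sample titles name no plate. In the plate layout assigned to the libraries here, no plate column, of 12, mixed genotypes or diets, so plate column and group cannot be told apart. Each column held either ZT2 and ZT6, ZT10 and ZT14, or ZT18 and ZT22 of its group. Plate column therefore cannot be told apart from these parts of the day either, which bears on the rhythms. Livers are mixtures, so that fewer cells of a type and less RNA per cell cannot be told apart either.

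The question of the genotype comparison on NC was how loss of the hepatocyte clock changes expression over the day in an otherwise untreated liver. In the 48 NC livers, with ZT as a factor, the daily level of Lpin1, Lpin2 and Dgat2 was lower in Hep-Bmal1KO and no member was higher: 3 of 9 passed edgeR's quasi-likelihood test at a Benjamini-Hochberg adjusted p under 0.05, where 12.6% of all genes tested passed and 5.61% were lower. The median log2 fold change of the 9 genes was -0.095, against -0.012 over all genes tested. On cdHFD, Gpam, Agpat2, Dgat2 and Mttp were lower in Hep-Bmal1KO and none was higher, which made 4 of 9 beside 9.61% of all genes, 4.99% being lower. The median of the members on cdHFD was -0.17, against 0.0099 over all genes. The genes were chosen with earlier results of these data known. From the same livers, the study had reported a lower daily mean (mesor) in Hep-Bmal1KO for Lpin1, Lpin2 and Dgat2 on NC and for Mttp on cdHFD. The shares of members called are therefore not an independent test of the set.

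The diet comparison asked what cdHFD did to the same genes within each genotype. In Hep-Bmal1WT, 5 of 9 members changed (Gpam, Agpat2, Lpin1 and Mttp lower, Mogat1 higher), a share like the 55.7% of all genes that changed. In Hep-Bmal1KO, 7 of 9 changed (Gpam, Agpat2, Lpin1, Dgat2, Mttp and Tm6sf2 lower, Lpin2 higher), beside 61.9% of all genes. Of all genes, 27% were lower on cdHFD in Hep-Bmal1WT and 29.6% in Hep-Bmal1KO. The genotype difference itself depended on diet for 2 of 9 members, Lpin1 and Agpat2, where 3.04% of all genes passed that interaction test. The 4 comparisons share libraries (each group enters a genotype and a diet comparison), so their values are set side by side below and are not independent.

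**Figure D1:**
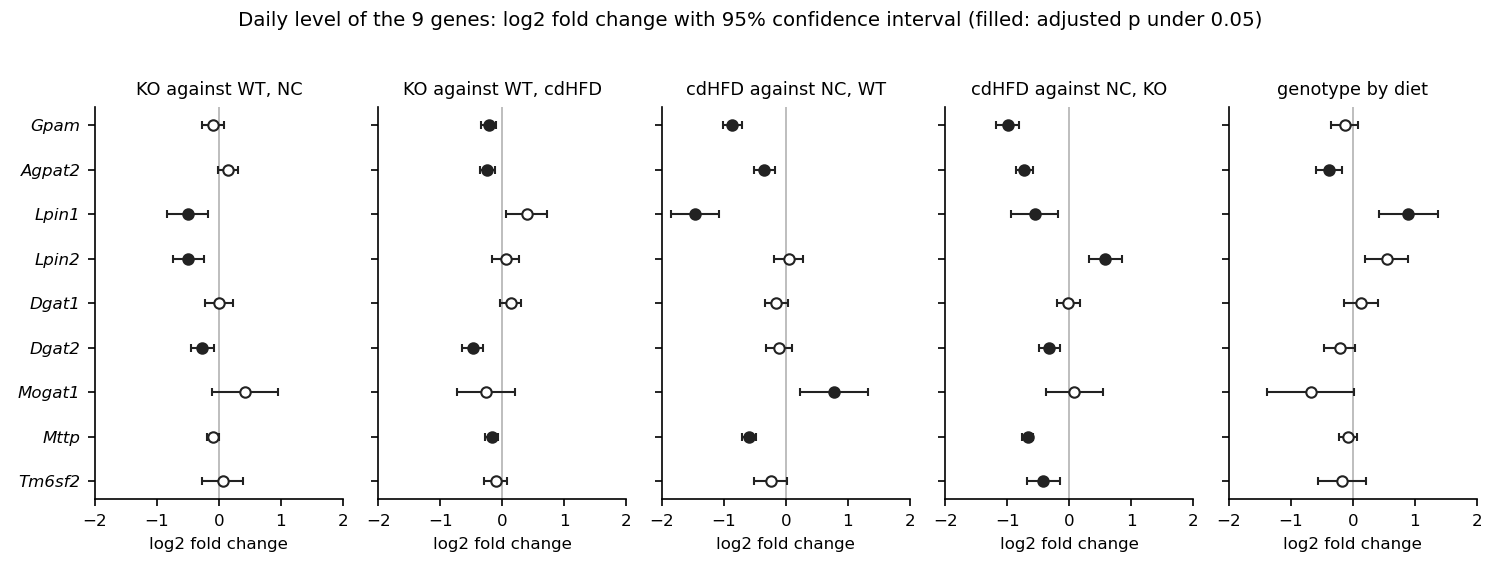
Log2 fold change of the daily level (x axis) of the 9 genes (y axis) in 5 comparisons, with 95% confidence intervals from edgeR and filled points for an adjusted p under 0.05. The 3 filled points for genotype on NC (Lpin1, Lpin2, Dgat2) and the 4 on cdHFD (Gpam, Agpat2, Dgat2, Mttp) lie left of 0, and the interaction is filled for Lpin1 at 0.90 and Agpat2 at -0.38.

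Daily rhythms were described by a cosine with a 24-hour period, fitted to variance-stabilized values, whose unit is close to log2 except at low counts. There the transform compresses differences. Mogat1 in Hep-Bmal1WT on NC had ZT means 5.48-fold apart in CPM, while its fitted curve spanned 1.79-fold from trough to peak. The mesor is the mean of the curve, the amplitude the distance from mesor to peak, and the peak time (phase) the ZT of the maximum. Rhythm was called, separately in every group, at an unadjusted p under 0.01 in any of 3 tests (cosinor F test, JTK_CYCLE, edgeR cosine and sine terms). In Hep-Bmal1WT on NC, 5 of 9 members were rhythmic (Agpat2, Lpin1, Lpin2, Dgat2, Mogat1), beside 22.5% of all genes. In Hep-Bmal1KO on NC, 3 of 9 were (Agpat2, Lpin1, Dgat2), beside 11.1%. On cdHFD, 6 of 9 were rhythmic in Hep-Bmal1WT (Gpam, Agpat2, Lpin1, Lpin2, Mttp, Tm6sf2) beside 18.7%, and 1 of 9 in Hep-Bmal1KO (Agpat2) beside 10.3%. In Hep-Bmal1WT on cdHFD, Tm6sf2 was called by the edgeR terms alone, not by the cosinor F test or JTK_CYCLE. Without the discordant libraries no test called it there (cosinor p = 0.0317, n = 22 a group). The groups held both sexes, whose Tm6sf2 means on NC lay far apart (females 64.2 and males 34.6 CPM in Hep-Bmal1WT, 70.8 and 32.1 in Hep-Bmal1KO). Its mean was lowest at ZT10 in every group. A missing call does not show that a gene lacks a rhythm, and the part of the sex spread in the missing calls was not tested. A call in one group and none in another is not a difference between them, so amplitudes and peak times were compared directly.

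Amplitudes were compared by a joint fit of both curves (CircaCompare's model) at an unadjusted p under 0.05. On NC, the amplitude was lower in Hep-Bmal1KO for Agpat2 and Mogat1, 2 of 9, where 4.12% of all genes differed (597 lower and 44 higher). On cdHFD it was lower for Agpat2, 1 of 9, beside 2.93% of all genes (406 lower and 49 higher). cdHFD lowered the amplitude of Agpat2 and Dgat2 in Hep-Bmal1WT, 2 of 9 beside 7.92%, and of no member in Hep-Bmal1KO at this threshold, beside 4.25%. After Benjamini-Hochberg adjustment over all genes no amplitude difference of a member passed with all libraries, and without the discordant libraries that of Agpat2 on NC did (adjusted p = 0.00031). The edgeR test of both curve terms together, which takes amplitude and phase as 1 question and adjusts over all genes, passed for Agpat2 between genotypes on NC (0.392% of all genes), for no member between genotypes on cdHFD (0.424%; unadjusted p under 0.05 for Agpat2 alone), for Agpat2, Lpin1 and Dgat2 between diets in Hep-Bmal1WT (6.19%), and for no member between diets in Hep-Bmal1KO (0.907%; unadjusted p under 0.05 for Gpam alone).

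Peak times were compared only where both groups were rhythmic. On NC, 3 members were (Agpat2, Lpin1, Dgat2), and Agpat2 peaked earlier in Hep-Bmal1KO, while 13.3% of the 953 genes rhythmic in both genotypes shifted. On cdHFD the sole member rhythmic in both genotypes, Agpat2, peaked at ZT 17.6 and 17.3 (difference -0.32 h, SE 1.01, p = 0.754, n = 24 a group), where 14.8% of 829 genes shifted. Between diets in Hep-Bmal1WT, Agpat2 and Lpin1 peaked earlier on cdHFD out of 3 members rhythmic on both diets, beside 45.6% of 1226 genes, of which 484 shifted earlier and 75 later. In Hep-Bmal1KO, Agpat2 was the sole member rhythmic on both diets and its peak differed by -1.87 h (SE 1.32, p = 0.165, n = 24 a group), beside 42.6% of 331 genes.

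**Figure D2:**
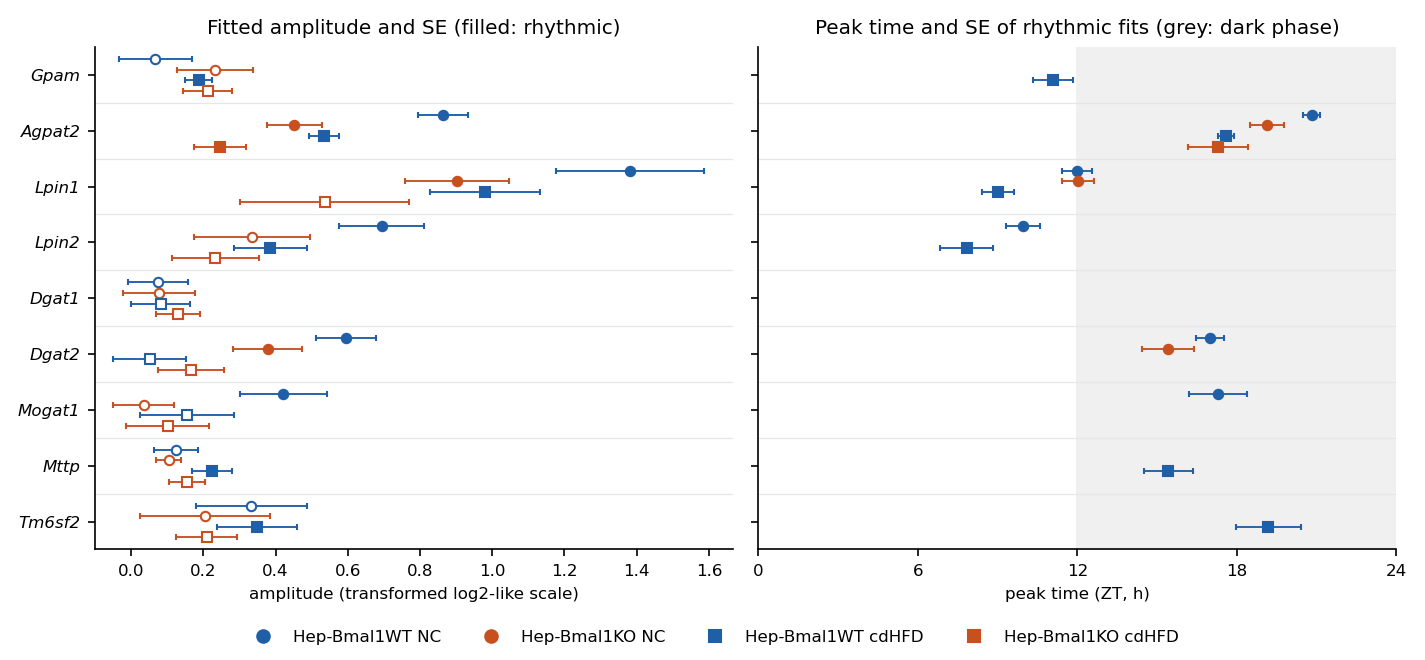
Fitted amplitude with its standard error on the variance-stabilized, log2-like scale (left) and peak time in ZT hours of the rhythmic fits (right) for the 9 genes in the 4 groups of 24 livers, with filled markers for rhythmic fits. Lpin1 and Agpat2 have the highest amplitudes (1.38 and 0.86 in Hep-Bmal1WT on NC), and the peak of Agpat2 moves from ZT 20.8 to 17.6 and that of Lpin1 from ZT 12.0 to 9.01 on cdHFD in Hep-Bmal1WT.

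Gpam (ENSMUSG00000024978, chromosome 19: 55067635-55127319 in RefSeq's GRCm38.p6 annotation) was lower on cdHFD in both genotypes, at 0.55-fold and 0.501-fold of its NC level. CPM ran from 87.4 through a median of 131.8 to 228 in Hep-Bmal1WT and from 81.4 through 125.7 to 227.4 in Hep-Bmal1KO on NC. On cdHFD the 24 Hep-Bmal1WT livers lay between 60.8 and 105.2, with a median of 73.8, and the Hep-Bmal1KO livers between 46.1 and 102.1, with a median of 62.1. The diet difference was -0.86 on the log2 scale (SE 0.078) in Hep-Bmal1WT and -0.997 (SE 0.093) in Hep-Bmal1KO, with edgeR adjusted p = 1.11e-13 and 2.39e-13.

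Between genotypes Gpam differed by -0.095 on NC (95% confidence interval, -0.28 to 0.090; edgeR adjusted p = 0.596), where the groups overlapped at each of the 6 times. On cdHFD the Hep-Bmal1KO level was lower by -0.22 on the log2 scale (SE 0.058, edgeR adjusted p = 0.00778). The clearest times were ZT2, with 66.6, 72.8, 66.3 and 71.9 CPM in Hep-Bmal1WT and 64.7, 62, 56.7 and 59 in Hep-Bmal1KO, and ZT6, with 76.8, 78.3, 70.6 and 90.3 against 60.1, 61.9, 62.6 and 70.2. At these times all 4 Hep-Bmal1KO livers were below all 4 Hep-Bmal1WT livers, as were 2.28% and 3.68% of all genes. At ZT14 the discordant Hep-Bmal1KO library held 102 CPM and the other 3 held 59.2 to 62.1, and without discordant libraries the difference was -0.27 (edgeR adjusted p = 0.000235). The genotype call did not hold without replicate 2 (edgeR adjusted p = 0.0666) or replicate 3 (0.0522), in females alone (-0.15, adjusted p = 0.273) or in males alone (-0.28, adjusted p = 0.061). Gpam overlaps the RefSeq entries Gm31356 and Gm31418, and strand use in counting is not given in the sources used here.

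Gpam rose and fell weakly on cdHFD in Hep-Bmal1WT, with an amplitude of 0.19 (SE 0.037) and a peak at ZT 11.1 (SE 0.75 h), which is a peak-to-trough ratio of 1.3. The Hep-Bmal1KO fit on cdHFD was as large, 0.21 (SE 0.069), and missed the threshold (cosinor p = 0.0198, n = 24 a group). The 2 amplitudes differed by 0.025 (SE 0.078, p = 0.748, n = 24 a group).

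Agpat2 (ENSMUSG00000026922, chromosome 2: 26593057-26604417) was rhythmic in all 4 groups, the sole member of which this holds, although in Hep-Bmal1KO on cdHFD it did not pass by adjusted p or by the cosinor F test alone. In Hep-Bmal1WT on NC it was lowest at ZT10, with 172, 208, 167 and 197 CPM, and highest at ZT18, with 694, 616, 662 and 645, and ZT22, with 588, 574, 736 and 706. The means at ZT18 and ZT10 differ 3.52-fold. In Hep-Bmal1KO on NC the trough was shallower, with 354, 350, 168 and 306 CPM at ZT10, where the value of 168 belongs to the discordant library and lies within the Hep-Bmal1WT range, and 618, 582, 603 and 540 at ZT18. All 4 Hep-Bmal1KO livers were above all 4 Hep-Bmal1WT livers at ZT14 (589, 491, 503 and 457 against 262, 369, 386 and 408 CPM), as for 5.35% of all genes, and all below at ZT22 (484, 546, 470 and 499 CPM), as for 3.08%.

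The amplitude of Agpat2 on NC was 0.86 (SE 0.070) in Hep-Bmal1WT and 0.45 (SE 0.077) in Hep-Bmal1KO, a difference of -0.41 (SE 0.10, p = 0.000284, n = 24 a group), and the peak came 1.67 h earlier in Hep-Bmal1KO (difference -1.67 h, SE 0.70, p = 0.0221). The edgeR test of both curve terms gave an adjusted p of 0.0251, and 6.05e-05 without the discordant libraries, where the amplitude difference was -0.52 (SE 0.082). The peak shift did not pass without replicate 1 (-0.84 h, p = 0.31, n = 18 a group) or replicate 4 (-1.65 h, p = 0.0837). The daily level on NC differed by 0.14 (95% confidence interval, -0.022 to 0.30; edgeR adjusted p = 0.298).

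On cdHFD Agpat2 ranged from 193.5 to 466.4 CPM (median 329.7) in Hep-Bmal1WT and from 152.2 to 401.8 (median 264.2) in Hep-Bmal1KO. The level was lower in Hep-Bmal1KO by -0.24 on the log2 scale (SE 0.062, edgeR adjusted p = 0.00729), a call that did not hold without replicate 2 (0.0805) or replicate 4 (0.0578) or in males alone (0.136). The groups separated at ZT18, with 406, 452, 423 and 402 CPM against 305, 338, 301 and 286, and at ZT22, with 346, 352, 387 and 388 against 195, 257, 276 and 262. At those times 3.43% and 3.84% of all genes were below in all Hep-Bmal1KO livers. The amplitude on cdHFD was 0.53 (SE 0.041) against 0.25 (SE 0.073), with a difference of -0.29 (SE 0.083, p = 0.0013, n = 24 a group; edgeR adjusted p of the curve terms 0.494).

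Within Hep-Bmal1WT, cdHFD lowered the level of Agpat2 by -0.34 (SE 0.087, edgeR adjusted p = 0.000669) and its amplitude by -0.33 (SE 0.081, p = 0.000211, n = 24 a group), and moved its peak by -3.22 h (SE 0.48, p = 4.47e-08), from ZT 20.8 to 17.6, with an edgeR adjusted p of 7.13e-06 for the curve terms. The level was not called in females alone (-0.27, edgeR adjusted p = 0.0969). In Hep-Bmal1KO the level differed by -0.73 (SE 0.067, edgeR adjusted p = 1.1e-13). The genotype difference was thus more negative on cdHFD than on NC by -0.38 (SE 0.10, edgeR adjusted p = 0.0224), or by -0.44 without the discordant libraries (adjusted p = 0.00451). That interaction was not called without replicate 1 (adjusted p = 0.168) or replicate 2 (0.186), in males alone (0.0648) or in females alone (0.284).

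**Figure D3:**
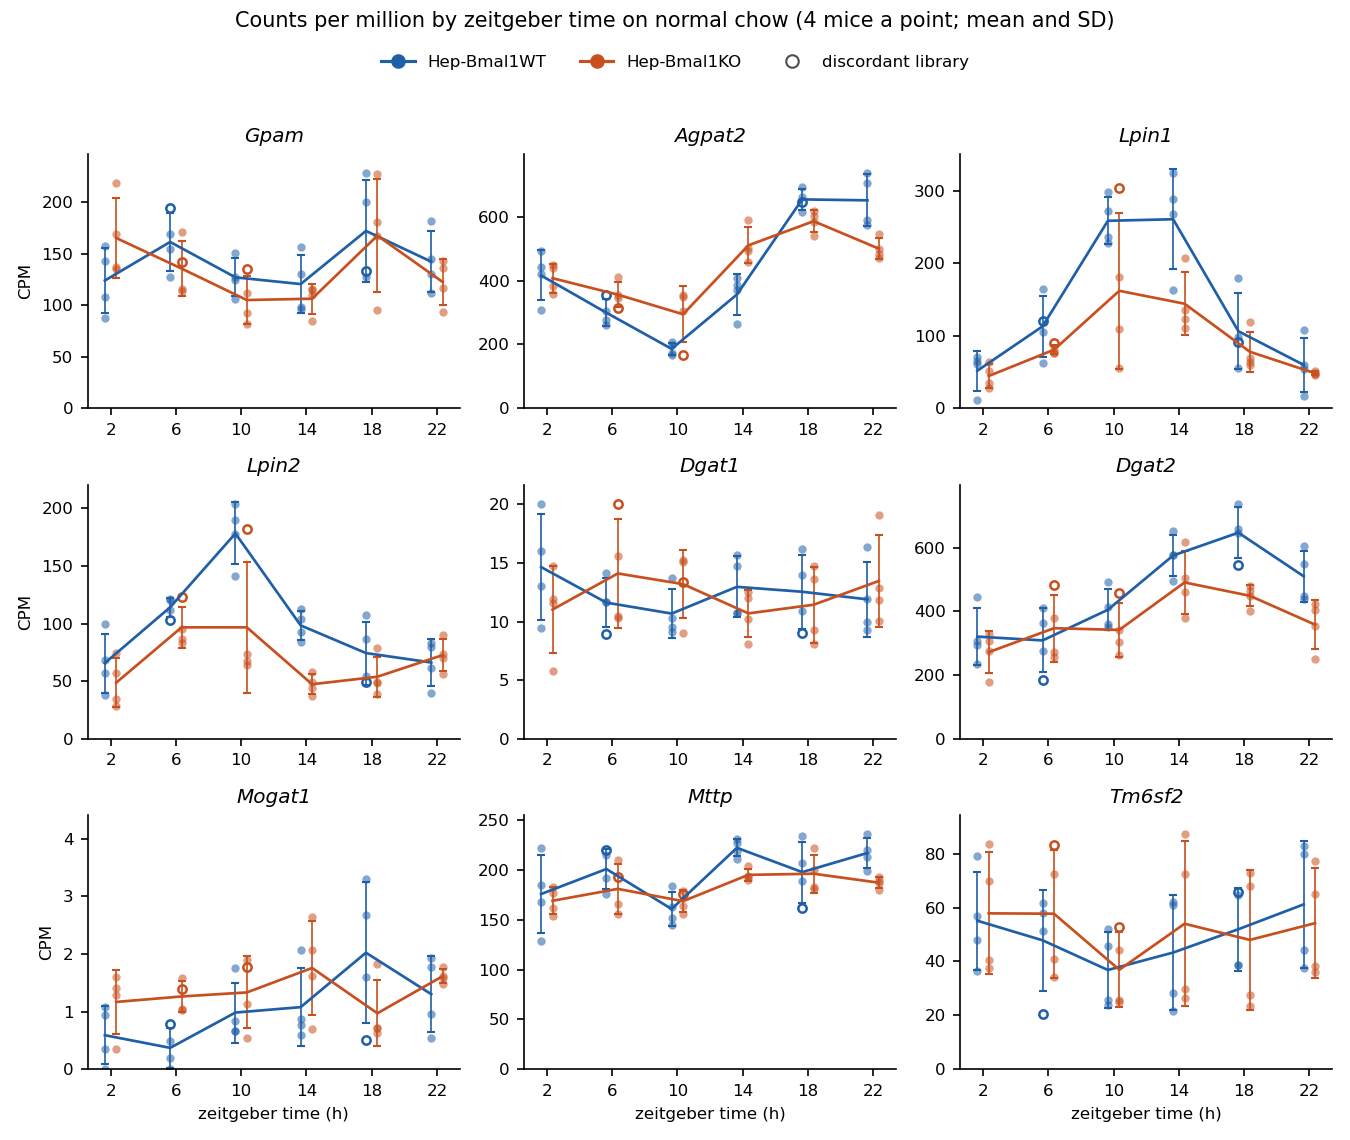
CPM (y axis, from 0) of the 9 genes at 6 zeitgeber times (x axis) on NC, 4 livers a genotype and time, with each liver as a point, discordant libraries as open circles, and lines through the means with SD bars. At ZT10 the open Hep-Bmal1KO circle lies among the Hep-Bmal1WT livers for Agpat2 (168 CPM) and Lpin2 (182 CPM), away from the other 3 Hep-Bmal1KO livers.

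Lpin1 (ENSMUSG00000020593, chromosome 12: 16535669-16653903) had the highest fitted amplitude of the 9 genes on the variance-stabilized scale and was lower in Hep-Bmal1KO on NC. Hep-Bmal1WT livers on NC ranged from 11.2 through a median of 106.5 to 324.5 CPM and Hep-Bmal1KO livers from 28.1 through 72.95 to 303.7. The groups lay farthest apart near the peak. At ZT10 the Hep-Bmal1WT livers held 298, 236, 228 and 272 CPM and the Hep-Bmal1KO livers 54.9, 109, 304 and 181, the 304 being the discordant library. At ZT14 they held 288, 163, 325 and 268 against 208, 135, 111 and 123. At ZT22 the groups interleaved, with 108, 59.8, 17.4 and 53.9 against 48.3, 46.2, 46.6 and 52.1.

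The daily level of Lpin1 on NC was lower in Hep-Bmal1KO by -0.50 on the log2 scale (0.705-fold, SE 0.17, edgeR adjusted p = 0.0343) and by -0.59 without the discordant libraries (adjusted p = 0.0129). Leaving out any replicate number, which removes 1 of 4 livers at each time and, on NC, males for numbers 1 and 2 and females for 3 and 4, ended this call (adjusted p 0.0546 to 0.163 and differences of -0.60 to -0.37), and it was not called in females alone (-0.32, adjusted p = 0.367). Lpin1 was rhythmic in both genotypes with the same peak, ZT 12.0 (difference 0.050 h, SE 0.89), and amplitudes of 1.38 (SE 0.20) and 0.90 (SE 0.14). The amplitude difference was -0.48 (SE 0.25, p = 0.0627, n = 24 a group), and -0.57 (SE 0.25, p = 0.0287) without the discordant libraries.

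On cdHFD Lpin1 fell, most in Hep-Bmal1WT. Values ran from 12.3 through a median of 41.8 to 107.5 CPM in Hep-Bmal1WT and from 19.99 through 53.4 to 200.8 in Hep-Bmal1KO. The diet difference was -1.46 (0.363-fold, SE 0.19, edgeR adjusted p = 7.53e-09) in Hep-Bmal1WT and -0.56 (0.679-fold, SE 0.19, adjusted p = 0.00847) in Hep-Bmal1KO, the latter not called without replicate 4 (adjusted p = 0.153) or in females alone (0.0567). The peak in Hep-Bmal1WT moved by -2.96 h (SE 0.86, p = 0.00132, n = 24 a group), from ZT 12.0 to 9.01, with an edgeR adjusted p of 0.0253 for the curve terms.

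The genotype difference of Lpin1 on cdHFD was 0.39 with the opposite sign to that on NC (95% confidence interval, 0.061 to 0.72), which did not pass over all genes (edgeR adjusted p = 0.134). The change of the genotype difference with diet was 0.90 (SE 0.24, edgeR adjusted p = 0.0203), and 1.03 without the discordant libraries (adjusted p = 0.00508), and it was not called without replicate 1 (adjusted p = 0.186) or replicate 2 (0.181), in males alone (0.11) or in females alone (0.224). At ZT18 on cdHFD both genotypes were at their lowest, with 28.2, 19.9, 12.2 and 15.6 CPM against 20, 29.9, 24.3 and 26.9. Lpin1 overlaps Ntsr2 in the RefSeq annotation.

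Lpin2 (ENSMUSG00000024052, chromosome 17: 71183532-71249818) was also lower in Hep-Bmal1KO on NC, with the groups farthest apart at ZT10 and ZT14. In Hep-Bmal1WT it climbed from 38, 68.3, 99.2 and 57.2 CPM at ZT2 to 204, 190, 178 and 141 at ZT10. In Hep-Bmal1KO the ZT10 livers held 73.5, 67.5, 182 and 63.6 CPM, of which 182 was the discordant library. At ZT14 all Hep-Bmal1KO livers (37.4, 44.4, 49.2 and 58 CPM) were below all Hep-Bmal1WT livers (104, 92.6, 112 and 84.2), as for 4.5% of all genes. At ZT22 the groups overlapped, with 79.9, 83.5, 39.8 and 61.4 against 70.2, 56.6, 90 and 73.4.

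The level of Lpin2 on NC was lower by -0.49 (0.711-fold, SE 0.13, edgeR adjusted p = 0.00625), and by -0.62 without the discordant libraries (adjusted p = 0.000357). The call did not hold without replicate 1 (adjusted p = 0.109) or replicate 2 (0.196), nor in the 24 females alone, where the difference was -0.13 (adjusted p = 0.792). Those females included the discordant Hep-Bmal1KO libraries, with 123 CPM at ZT6 and 182 at ZT10. Females alone without these libraries were not tested. Lpin2 was rhythmic in Hep-Bmal1WT on NC with an amplitude of 0.69 (SE 0.12) and a peak at ZT 9.96, and the amplitude in Hep-Bmal1KO was 0.33 (SE 0.16). The amplitudes differed by -0.36 (SE 0.20, p = 0.0777, n = 24 a group), and by -0.49 (SE 0.19, p = 0.0119) without the discordant libraries.

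Lpin2 was the sole member to rise on cdHFD in Hep-Bmal1KO, by 0.58 (1.5-fold, SE 0.13, edgeR adjusted p = 0.000137), with medians of 65.6 CPM on NC and 95.1 on cdHFD. In females alone that rise was not called (0.36, edgeR adjusted p = 0.108). In Hep-Bmal1WT the medians were 95.9 and 96.8 CPM and the difference was 0.043 (95% confidence interval, -0.18 to 0.27; adjusted p = 0.77). On cdHFD the genotypes differed by 0.054 (95% confidence interval, -0.16 to 0.27). The interaction of genotype and diet was 0.55 (SE 0.17) with an edgeR adjusted p of 0.0578, and 0.65 with an adjusted p of 0.00945 without the discordant libraries, while DESeq2 in place of edgeR gave an adjusted p of 0.043.

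**Figure D4:**
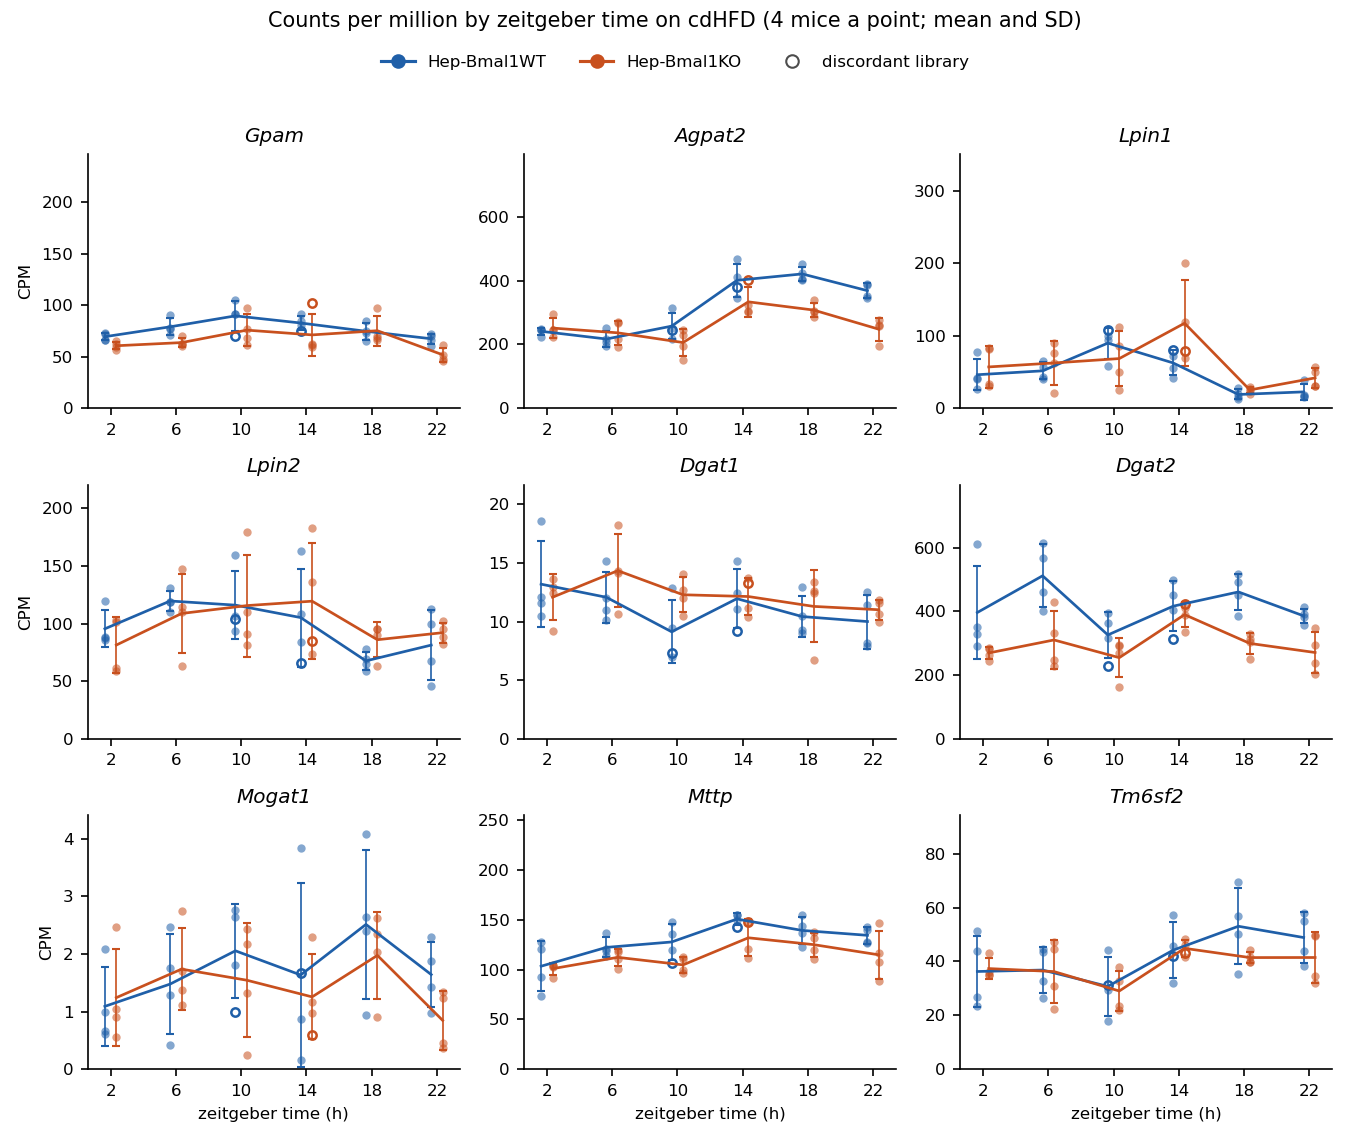
CPM (y axis, from 0, with the same limits as for NC) of the 9 genes at 6 zeitgeber times (x axis) on cdHFD, 4 livers a genotype and time, with each liver as a point, discordant libraries as open circles, and lines through the means with SD bars. Dgat2 of Hep-Bmal1KO lies below Hep-Bmal1WT at ZT2, ZT18 and ZT22, and Lpin1 falls to 12.2 to 29.9 CPM in both genotypes at ZT18.

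Dgat1 (ENSMUSG00000022555, chromosome 15: 76502012-76512021), a diacylglycerol acyltransferase of the endoplasmic reticulum, passed no test in any comparison with all libraries. Its medians were 11.7 CPM in Hep-Bmal1WT and 11.9 in Hep-Bmal1KO on NC, and 11.02 and 12.5 on cdHFD, with single livers from 5.82 to 20.1. The genotype difference was -0.0026 on NC (95% confidence interval, -0.23 to 0.22) and 0.14 on cdHFD (-0.033 to 0.30), and the diet difference -0.15 in Hep-Bmal1WT (-0.34 to 0.036) and -0.015 in Hep-Bmal1KO (-0.21 to 0.18). Without replicate 4 the diet difference in Hep-Bmal1WT was called (-0.26, edgeR adjusted p = 0.0229). Fitted amplitudes were 0.074 to 0.13 in the 4 groups, none rhythmic. Each group rested on 1430 to 2622 Dgat1 counts over its 24 libraries.

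Dgat2 (ENSMUSG00000030747, chromosome 7: 99153663-99182713), the enzyme that handles much of the newly made diacylglycerol in liver, was the sole member lower in Hep-Bmal1KO on both diets. On NC, Hep-Bmal1WT livers held 184.1 to 738.9 CPM with a median of 447.6, and Hep-Bmal1KO livers 178.9 to 616.9 with a median of 378.7. The genotypes separated late in the dark phase. At ZT18 they held 659, 648, 739 and 544 CPM (the last discordant) against 403, 464, 480 and 450, and at ZT22 439, 449, 606 and 548 against 251, 355, 424 and 404, with all Hep-Bmal1KO livers lowest, as for 1.9% and 3.08% of all genes. The daily level differed by -0.27 (0.831-fold, SE 0.089, edgeR adjusted p = 0.0392) and by -0.37 without the discordant libraries (adjusted p = 0.000325). Without replicate 1, 2, 3 or 4 the adjusted p was 0.248, 0.0621, 0.0525 and 0.108 (differences of -0.31 to -0.20), so that no such subset kept the call, and with no filter beyond 1 count it was 0.0614 and in females alone 0.175.

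On cdHFD the Dgat2 difference was -0.48 (0.717-fold, SE 0.082, edgeR adjusted p = 5.53e-05), the largest genotype difference among the 4 members called, and it passed without each replicate number in turn. Hep-Bmal1WT livers held 228.4 to 616.6 CPM (median 397.2) and Hep-Bmal1KO livers 163.2 to 430.8 (median 292.9). The genotypes did not overlap at ZT2 (352, 613, 291 and 329 against 246, 283, 286 and 263 CPM), ZT18 (385, 517, 451 and 493 against 314, 328, 305 and 251) and ZT22 (359, 413, 382 and 391 against 203, 238, 348 and 295), where 2.28%, 3.43% and 3.84% of all genes were below in all Hep-Bmal1KO livers. The difference between the diets in the genotype effect was -0.21 (95% confidence interval, -0.46 to 0.034; edgeR adjusted p = 0.396).

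Dgat2 was called rhythmic on NC in both genotypes and on cdHFD in neither. Its amplitude on NC was 0.60 (SE 0.083) with a peak at ZT 16.98 in Hep-Bmal1WT, and 0.38 (SE 0.096) with a peak at ZT 15.4 in Hep-Bmal1KO, a difference of -0.22 (SE 0.13, p = 0.0942, n = 24 a group). On cdHFD the amplitudes were 0.051 (SE 0.10) and 0.17 (SE 0.091). The loss of amplitude with diet was -0.54 in Hep-Bmal1WT (SE 0.13, p = 0.000143, n = 24 a group, with an edgeR adjusted p of 0.00424 for the curve terms) and -0.21 in Hep-Bmal1KO (SE 0.13, p = 0.117), or -0.30 (p = 0.0238) without the discordant libraries. The daily level in Hep-Bmal1WT differed between diets by -0.11 (95% confidence interval, -0.31 to 0.10), and in Hep-Bmal1KO by -0.32 (SE 0.086, edgeR adjusted p = 0.00109), the latter not called in males alone (-0.22, adjusted p = 0.0718).

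Mogat1 (ENSMUSG00000012187, chromosome 1: 78511060-78606964), which acylates monoacylglycerol, was close to the limit of detection. All 24 Hep-Bmal1WT livers on NC held 121 Mogat1 counts together, and 2 of them held none (ZT2 replicate 3, where 3 counts would be 1.78 CPM, and ZT6 replicate 1, where they would be 0.376 CPM; counting error only). Medians were 0.81 CPM in Hep-Bmal1WT and 1.45 in Hep-Bmal1KO on NC, and 1.72 and 1.28 on cdHFD, with single livers from 0 to 4.08. cdHFD raised Mogat1 in Hep-Bmal1WT by 0.78 (SE 0.27, edgeR adjusted p = 0.0129), but not in males alone (0.10, adjusted p = 0.851) or without replicate 4 (0.37, adjusted p = 0.322). In Hep-Bmal1KO the diet difference was 0.078 (95% confidence interval, -0.38 to 0.54). The genotype difference was 0.43 on NC (-0.10 to 0.96) and -0.27 on cdHFD (-0.74 to 0.20). In CircaCompare's model its mesor on NC was higher in Hep-Bmal1KO by 0.23 (SE 0.10, unadjusted p = 0.0288). On cdHFD that difference was -0.11 (SE 0.12, unadjusted p = 0.37).

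Mogat1 was called rhythmic in Hep-Bmal1WT on NC, with an amplitude of 0.42 (SE 0.12) and a peak at ZT 17.3, and its amplitude was lower by -0.39 in Hep-Bmal1KO (SE 0.15, p = 0.0119, n = 24 a group; edgeR adjusted p of the curve terms 0.625). At ZT18 the Hep-Bmal1WT livers held 1.6, 3.3, 2.68 and 0.513 CPM and the Hep-Bmal1KO livers 0.714, 0.622, 0.71 and 1.83. At ZT6 all Hep-Bmal1KO livers (1.03, 1.58, 1.04 and 1.38 CPM) were above all Hep-Bmal1WT livers (0, 0.786, 0.494 and 0.194), as for 2.3% of all genes. The amplitude difference did not pass without replicate 1 (p = 0.11, n = 18 a group) or replicate 3 (p = 0.0872). Mogat1 overlaps the RefSeq entry Gm39665.

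Mttp (ENSMUSG00000028158, chromosome 3: 138089855-138143418) was lower on cdHFD in both genotypes. On NC its CPM ran from 128.3 through a median of 203.2 to 236.2 in Hep-Bmal1WT and from 153.6 through 182.9 to 222 in Hep-Bmal1KO. On cdHFD it ran from 73.3 through 132 to 155.3 and from 88.4 through 111.2 to 148.1. In Hep-Bmal1KO every cdHFD liver was below every NC liver, as for 2.55% of all genes, while in Hep-Bmal1WT the ranges overlapped. The diet difference was -0.59 (0.663-fold, SE 0.057, edgeR adjusted p = 7.93e-13) in Hep-Bmal1WT and -0.67 (0.627-fold, SE 0.046, adjusted p = 3.35e-18) in Hep-Bmal1KO.

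Between genotypes Mttp differed by -0.17 on cdHFD (0.887-fold, SE 0.052, edgeR adjusted p = 0.0242), which did not hold without replicate 1 (adjusted p = 0.222), 2 (0.21) or 3 (0.0706), or in males (0.177) or females (0.206) alone. On NC the difference was -0.095 (95% confidence interval, -0.19 to 0.0023; edgeR adjusted p = 0.223). All 4 Hep-Bmal1KO livers were nevertheless below all 4 Hep-Bmal1WT livers on NC at ZT14 (193, 194, 204 and 190 against 219, 212, 227 and 231 CPM) and ZT22 (193, 189, 187 and 180 against 220, 236, 213 and 199), as for 4.5% and 3.08% of all genes. The cdHFD rhythm of Mttp in Hep-Bmal1WT had an amplitude of 0.22 (SE 0.054) and a peak at ZT 15.4, against 0.15 (SE 0.050) in Hep-Bmal1KO, a difference of -0.069 (SE 0.074, p = 0.355, n = 24 a group).

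Tm6sf2 (ENSMUSG00000036151, chromosome 8: 70072924-70080066) had the largest sex difference of the 9 genes on NC. CPM on NC ran from 20.6 through a median of 49.6 to 82.8 in Hep-Bmal1WT and from 23.6 through 42.5 to 87.3 in Hep-Bmal1KO, and on cdHFD from 17.8 through 43.5 to 69.5 and from 22.1 through 39.9 to 49.8. The genotype difference was 0.061 on NC (95% confidence interval, -0.27 to 0.39) and -0.11 on cdHFD (-0.30 to 0.079). On cdHFD the level differed by -0.24 in Hep-Bmal1WT (-0.51 to 0.022; edgeR adjusted p = 0.113) and by -0.42 in Hep-Bmal1KO (SE 0.13, adjusted p = 0.00604). The latter was 0.062 in males alone (adjusted p = 0.668), and it was not called without replicate 3 (adjusted p = 0.122) or replicate 4 (0.121), which on NC are the females. The difference in Hep-Bmal1WT was called in females alone (-0.32, edgeR adjusted p = 0.00225).

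Sex was compared within each diet with genotype and ZT in the model. On NC, 2 of 9 members were lower in males (Tm6sf2 and Dgat2), where 18.3% of all genes were called and 9.78% of all genes were lower. On cdHFD, 3 of 9 were lower in males (Tm6sf2, Dgat2 and Mogat1), where 5.8% of all genes were called and 3.28% of all genes were lower. The genotype difference depended on sex for no member on either diet by edgeR's adjusted p, where 0.341% of all genes passed on NC and 0% on cdHFD. At an unadjusted p under 0.05 that interaction named Lpin2 on NC (-0.72, SE 0.23, p = 0.00235, adjusted p = 0.163, n = 24 a group) and Mogat1 on NC (-1.07, SE 0.51, p = 0.0434), and no member on cdHFD. Without the discordant libraries these values were -0.62 (edgeR adjusted p = 0.344) for Lpin2 and -0.89 (edgeR adjusted p = 0.766) for Mogat1.

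In Hep-Bmal1KO on NC the 12 females held 44.1 to 87.3 CPM of Tm6sf2, with a median of 72.5, and the 12 males 23.6 to 41, with a median of 31.9, so that the sexes did not overlap, all males being below all females as for 0.328% of all genes. In Hep-Bmal1WT on NC the females held 45.9 to 82.8 and the males 20.6 to 51.4. On cdHFD 11 Hep-Bmal1WT females held 31.4 to 69.5 and 13 males 17.8 to 50.2, and in Hep-Bmal1KO the ranges were 32.5 to 49.8 and 22.1 to 44.4, with wide overlap. The difference of males from females was -1.02 on NC (0.492-fold, SE 0.072, edgeR adjusted p = 1.17e-16) and -0.49 on cdHFD (0.71-fold, SE 0.064, adjusted p = 1.12e-07). The difference between these values was not tested. The female means were 64.2 ± 11.4 CPM (SD) on NC and 50.5 ± 10.3 on cdHFD in Hep-Bmal1WT, and 70.8 ± 12.5 and 42.99 ± 5.69 in Hep-Bmal1KO, while the male means were 34.6 ± 10.4 and 34.2 ± 9.54, and 32.1 ± 6.45 and 33.8 ± 7.95.

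Dgat2 was lower in males by -0.39 on NC (0.763-fold, SE 0.068, edgeR adjusted p = 1.81e-05) and by -0.25 on cdHFD (SE 0.074, adjusted p = 0.0298). The male and female ranges overlapped in all 4 groups, for example 184.1 to 659.3 and 295.2 to 738.9 CPM in Hep-Bmal1WT on NC. The cdHFD call did not hold when any replicate number was left out (adjusted p 0.0806 to 0.3). Mogat1 was lower in males on cdHFD by -0.93 (0.526-fold, SE 0.20, edgeR adjusted p = 0.00142), with medians of 0.90 against 2.23 CPM in Hep-Bmal1KO and 0.999 against 2.08 in Hep-Bmal1WT, and the call did not hold without replicate 4 (adjusted p = 0.198). On NC its difference was 0.11 (95% confidence interval, -0.42 to 0.64). On NC, 6 of 6 macrophage, 5 of 5 endothelial, 3 of 6 stellate cell, 2 of 5 lymphocyte and 1 of 4 cholangiocyte marker genes were also lower in males, with 1 of 6 hepatocyte markers higher and 1 lower, and on cdHFD 1 hepatocyte marker was higher and 1 endothelial marker lower. Of all genes, 8.47% were higher and 9.78% lower in males on NC, and 2.52% and 3.28% on cdHFD. These markers moved with sex, and their part in the sex differences was not tested.

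**Figure D5:**
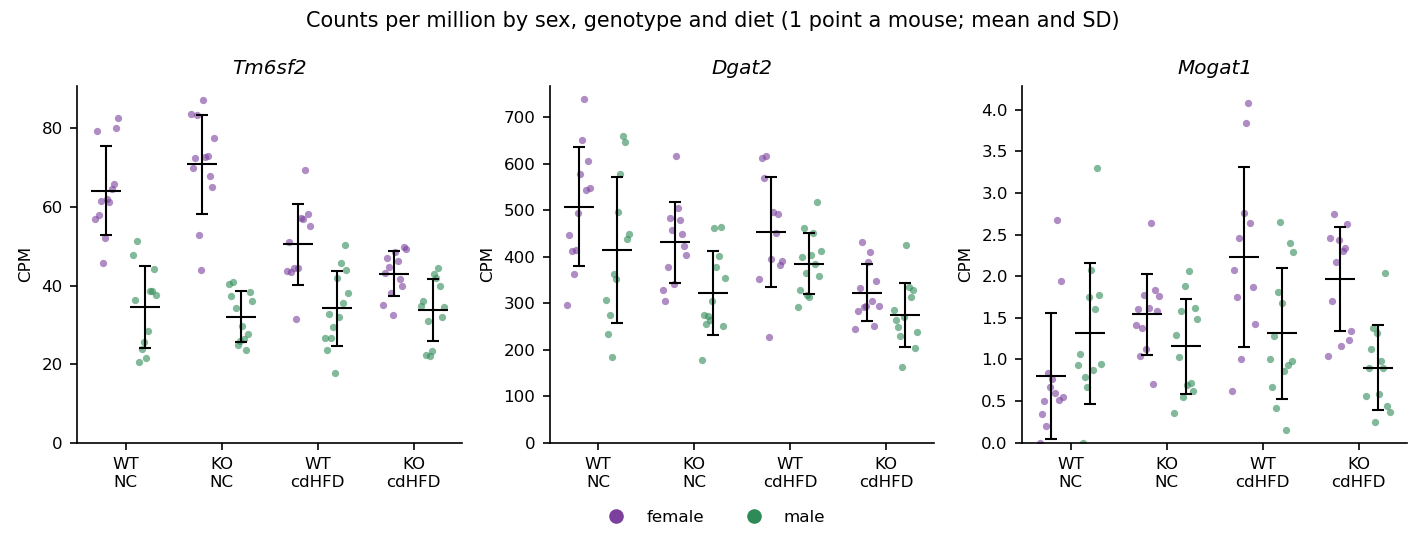
CPM (y axis, from 0) of Tm6sf2, Dgat2 and Mogat1 in females and males of each genotype and diet (x axis), with each liver as a point and bars for the mean and SD of 11 to 13 livers. Tm6sf2 of females stands apart from that of males on NC in Hep-Bmal1KO (44.1 to 87.3 against 23.6 to 41 CPM), and the sexes overlap on cdHFD.

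The wider pathway was read from 5 lists of 43 further genes, of which 41 were tested. Between genotypes on NC, 4 of 41 were higher and 7 lower in Hep-Bmal1KO, where 7% and 5.61% of all genes were, and on cdHFD none was higher and 7 were lower, beside 4.62% and 4.99%. On cdHFD against NC, 12 were higher and 22 lower in Hep-Bmal1WT, beside 28.7% and 27% of all genes, and 10 and 22 in Hep-Bmal1KO, beside 32.4% and 29.6%. These shares of all genes are the background for each list below. The median log2 fold changes were 0.0068, -0.045, -0.18 and -0.31 for these 4 comparisons, against -0.012, 0.0099, 0.013 and 0.023 over all genes tested. The interaction of genotype and diet was called for 1 gene in each direction, beside 1.04% higher and 2% lower of all genes.

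Of the 11 tested genes listed under glycerol phosphate acylation, which also hold Gk, Gpd1, Lpin3 and Mogat2 of neighbouring steps, 8 were higher and 2 lower on cdHFD in Hep-Bmal1WT (72.7% and 18.2%), and 5 and 2 in Hep-Bmal1KO (45.5% and 18.2%), where the 63.6% called lay near the 61.9% of all genes. Gpat3, a glycerol-3-phosphate acyltransferase of the endoplasmic reticulum, was higher on cdHFD by 1.78 (SE 0.16, edgeR adjusted p = 4.46e-14) in Hep-Bmal1WT and 3.16 (SE 0.22, adjusted p = 7.46e-18) in Hep-Bmal1KO, and Gpat4, another enzyme of that step, was lower by -0.70 and -0.73. On NC Gpat3 was lower in Hep-Bmal1KO by -1.31 (SE 0.30, adjusted p = 0.00167), and its genotype difference depended on diet by 1.38 (SE 0.27, adjusted p = 0.000651). Between genotypes this list held 2 higher and 2 lower on NC and none called on cdHFD. Agpat4, which like Agpat2 acylates lysophosphatidic acid, was higher on cdHFD by 1.52 (SE 0.18) and 1.46 (SE 0.16).

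Of the 12 genes of VLDL assembly and export, 7 were lower and 2 higher on cdHFD in Hep-Bmal1WT (58.3% and 16.7%), and 8 and 2 in Hep-Bmal1KO (66.7% and 16.7%). Apob, the structural protein of VLDL, was lower by -0.32 (SE 0.057, edgeR adjusted p = 3.77e-06) and -0.46 (SE 0.066, adjusted p = 3.77e-08), and Sar1b, a GTPase of the vesicles that leave the endoplasmic reticulum, by -0.65 (SE 0.082) and -0.77 (SE 0.071). Sar1b was lower in Hep-Bmal1KO on NC (-0.22, SE 0.077, adjusted p = 0.0469) and on cdHFD (-0.34, SE 0.077, adjusted p = 0.00192), whereas Apob differed by 0.093 and -0.040 and passed neither. Between genotypes the list held 1 higher and 2 lower on NC and 3 lower on cdHFD. Smlr1 gave the called interaction in the lower direction (-0.30, SE 0.087, adjusted p = 0.0401).

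Among 4 tested acyl-CoA synthetases, 3 were lower on cdHFD in each genotype, Acsl1, which activates long-chain fatty acids, by -1.56 (SE 0.088) and -1.60 (SE 0.069), and 1 of 4 (Acsl1, -0.19, edgeR adjusted p = 0.0458) was lower in Hep-Bmal1KO on NC and none on cdHFD. Of 6 tested genes of triglyceride hydrolysis, 1 was higher and 3 lower on cdHFD in Hep-Bmal1WT, and 2 and 3 in Hep-Bmal1KO. In that list Mgll, the monoglyceride lipase, was lower in Hep-Bmal1KO on NC (-0.47, SE 0.075, adjusted p = 1.02e-05) and on cdHFD (-0.34, SE 0.077, adjusted p = 0.00219). The list held 1 higher and 1 lower between genotypes on NC and 2 lower on cdHFD. Of 8 phospholipid genes, some of which draw on the same diacylglycerol or phosphatidic acid, 7 were lower and 1 higher on cdHFD in Hep-Bmal1WT, and 6 and 1 in Hep-Bmal1KO. Chpt1, a cholinephosphotransferase, was lower in Hep-Bmal1KO on NC (-0.46, SE 0.12, adjusted p = 0.00621) and on cdHFD (-0.51, SE 0.071, adjusted p = 2.4e-06), as 1 of 8 on NC and 2 of 8 on cdHFD. Between the sexes, 7 of the 41 tested genes of the 5 lists were higher and 7 lower in males on NC, beside 8.47% and 9.78% of all genes. On cdHFD 1 was higher and 5 lower, beside 2.52% and 3.28%.

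Some markers of the liver's cell types changed with diet beside these genes. All 6 hepatocyte markers were lower on cdHFD in each genotype, with a median log2 fold change of -1.10 in Hep-Bmal1WT and -1.02 in Hep-Bmal1KO, and their summed level went from 102300-210500 CPM (median 154800) to 53160-89540 (73380) in Hep-Bmal1WT and from 88750-211500 (112200) to 48020-85300 (61880) in Hep-Bmal1KO. Alb weighed most in that sum, with NC medians of 105600 CPM in Hep-Bmal1WT and 52370 in Hep-Bmal1KO. The NC medians of Apoa1 (13820 and 13830), Ttr (26170 and 26410), Serpina1c (12910 and 14300) and Cps1 (1710 and 1837) were not lower in Hep-Bmal1KO. That of Hnf4a was (375.7 and 318.1). All 6 macrophage markers were higher on cdHFD, from 208.3-548.1 to 953-2409 CPM in Hep-Bmal1WT and from 175.7-557.8 to 1326-2747 in Hep-Bmal1KO. Stellate cell markers were higher for 5 of 6 and 6 of 6 genes, cholangiocyte markers for 2 and 3 of 4, lymphocyte markers for 3 and 1 of 5, and endothelial markers for 2 of 5 in each genotype (1 and 2 lower). Of all genes, 28.7% and 32.4% were higher. In Hep-Bmal1WT the cholangiocyte (50%), lymphocyte (60%) and endothelial (60%) shares called lay near the 55.7% of all genes. In Hep-Bmal1KO the lymphocyte share (20%) lay below the 61.9% of all genes. The lymphocyte list includes Ptprc, which other leukocytes also express, at group medians of 5.23 to 21.8 CPM. Between genotypes, 2 of 6 hepatocyte markers were lower in Hep-Bmal1KO on either diet, 1 of 4 cholangiocyte markers was higher on NC and 2 of 4 on cdHFD, and 4 of 6 stellate cell markers were higher on cdHFD, where their summed level was 481.4-999.3 CPM in Hep-Bmal1WT and 474.6-1442 in Hep-Bmal1KO. Of all genes, 7% were higher and 5.61% lower in Hep-Bmal1KO on NC, and 4.62% and 4.99% on cdHFD. Of 6 macrophage markers, none was called between genotypes on NC, and 1 was higher and 1 lower on cdHFD. No lymphocyte or endothelial marker was called between genotypes. Adipocyte markers had group medians of 0.15 to 0.64 CPM with single livers up to 81.7, and 2 of 3 tested were lower on cdHFD in Hep-Bmal1WT. The part of cell composition in the changes of the 9 genes was not tested.

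Over the 24 means of genotype, diet and ZT, the profiles of the 9 genes on the log2 CPM scale were compared with each other. Gpam and Mttp were most alike (Pearson r = 0.87), Agpat2 went with Tm6sf2 (0.79) and Mttp (0.71), and Agpat2 and Lpin2 ran most opposite (-0.76). These means share diet and libraries, so the values are descriptions. Among 8999 other genes (9000 for Mogat1) with a mean of at least 5 CPM, those close to Gpam included Cox20 (r = 0.96), and those close to Mttp included Fads1, a fatty acid desaturase (0.96). Those closest to Lpin1 were Pim3 (0.898) and Pck1, a gluconeogenic enzyme (0.895), to Lpin2 Angptl4, an inhibitor of lipoprotein lipase (0.88), and Fnip2 (0.87), and to Dgat2 Aqp11 (0.85) and Mcur1 (0.83). Agpat2 was closest to Mrpl34 and Tmem33 (both 0.93), Tm6sf2 to Ndufaf5 (0.92) and Zfp36l1 (0.90), Mogat1 to 2810025M15Rik (0.71) and Lrrc57 (0.67), and Dgat1 to Rp9 and Vamp8 (both 0.63).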

How the data were processed

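Liver RNA of 96 mice was sequenced as 3′ tags. Per the study's methods, the authors demultiplexed the reads with BRB-seq tools and used STAR for alignment (mm10), and the deposited values are unnormalized counts for each gene. HTSeq and featureCounts are both named, and UMI collapsing and strand use are not given in the sources used here. Of the reads, 19.42% were listed as not aligned and 8.062% as in no feature, and these rows were left out.

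Counts were normalized by TMM and tested with edgeR 4.0.16 (R 4.3.3) quasi-likelihood fits, ZT as a factor, on genes with 100 or more counts in all, with Benjamini-Hochberg adjusted p under 0.05 over all 15548. Cosine curves of 24 h were fitted by least squares to DESeq2 1.42.0 variance-stabilized values. Scripts were tested on simulated data. Nothing in the labels says how the mice were drawn beyond genotype, diet, ZT and sex, and p-values measure the spread between mice.

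The 9 genes, 5 pathway lists and 7 cell type marker lists were chosen with earlier results of these data known. All 9 members are named, pathway genes where a result turns on them, and for each member the 2 genes of highest Pearson r, of which some are not reported here. Positions come from RefSeq's GRCm38.p6 annotation, matched by symbol. A library was called discordant when it lay nearer the other genotype both on 10 clock genes and on 20 other genes. Alternatives were DESeq2's test and size factors, other filters, sex as a covariate, each sex alone, log2 CPM, single rhythm tests, adjusted p, no discordant libraries, and each replicate number left out. Depth was 1861740 to 9718615 counts.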

Additional observations from a re-analysis of the deposited data

Results flagged for a closer look

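Of 216 sets of 4 livers (1 gene, genotype, diet and ZT), 14 held a liver far from the other 3. Chance alone marks about 1 in 20 sets, which is 10.8 here. In 2 of the 14 the distant liver was a discordant library: Gpam at 102 CPM in Hep-Bmal1KO on cdHFD at ZT14 (nearest 62.1), and Lpin2 at 182 CPM in Hep-Bmal1KO on NC at ZT10 (nearest 73.5).

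Among the other 12, Gpam was high in Hep-Bmal1KO on cdHFD at ZT18 (97 CPM) and Agpat2 low in Hep-Bmal1WT on cdHFD at ZT2 (224). Lpin1 was low in Hep-Bmal1WT on NC at ZT2 (11.2), high in Hep-Bmal1WT on cdHFD at ZT22 (39.2) and high in Hep-Bmal1KO on NC at ZT18 (119). Lpin2 was high in Hep-Bmal1WT on cdHFD at ZT2 (120) and low in Hep-Bmal1KO on cdHFD at ZT18 (63.3), where Dgat1 was low too (6.73, in another liver). Mogat1 was high in Hep-Bmal1WT on NC at ZT10 (1.75) and in Hep-Bmal1KO on NC at ZT18 (1.83). In Hep-Bmal1KO on cdHFD at ZT2, Mttp was low (92) and Tm6sf2 high (43.3).

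The genotype difference depended on diet for Lpin1 (0.899 on the log2 scale) and Agpat2 (-0.381), with edgeR adjusted p of 0.0203 and 0.0224. The cause was not tested.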

How the results depend on the processing

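No paired analysis was possible because the labels give no replicate numbers: those used here were assigned in accession order and pair no livers. Leaving out replicates or a sex also leaves fewer livers; the cause of the other changes was not tested. Mogat1 is limited by depth, with 121 to 311 counts a group.

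Leaving out each replicate number in turn gave 0 to 1 members called between genotypes on NC, 1 to 3 on cdHFD, 0 to 3 for genotype by diet, and 1 to 2 for sex on cdHFD. All genes called then numbered 940 to 1630, 522 to 1376, 103 to 373 and 386 to 530, and 1697 to 2089 for sex on NC. Rhythmic genes numbered 1842 to 2370 in Hep-Bmal1WT and 1019 to 1289 in Hep-Bmal1KO on cdHFD, with 0 to 1 members in the latter. Members with another amplitude numbered 1 to 2 (genotype on NC) and 0 to 1 (diet in Hep-Bmal1KO), and with another peak time on NC 0 to 1.

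The sign turned in those subsets for differences that were not called. For Dgat1 these were genotype on NC (-0.083 to 0.15), diet in Hep-Bmal1KO (-0.11 to 0.087), genotype by diet (-0.10 to 0.26), sex on NC (-0.0012 to 0.18) and sex on cdHFD (-0.11 to 0.10). For Gpam they were genotype on NC (-0.14 to 0.026), sex on cdHFD (-0.038 to 0.055) and amplitude between genotypes on cdHFD (-0.0078 to 0.067). For Lpin1 they were sex on cdHFD (-0.067 to 0.22) and peak time on NC (-0.39 to 0.59 h), and for Lpin2 diet in Hep-Bmal1WT (-0.017 to 0.12) and genotype on cdHFD (-0.010 to 0.17). For Mogat1 they were diet in Hep-Bmal1KO (-0.0090 to 0.13) and sex on NC (-0.23 to 0.39), for Tm6sf2 genotype on NC (-0.032 to 0.12) and amplitude with diet in Hep-Bmal1WT (-0.018 to 0.095), and for Agpat2 peak time between genotypes on cdHFD (-0.68 to 0.060 h).

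Without the discordant libraries, 919 genes passed for genotype by diet, and 94 (NC) and 41 (cdHFD) for genotype by sex. Members with another amplitude were 4 between genotypes on NC and 1 between diets in Hep-Bmal1KO. Signs turned for Tm6sf2 (genotype on NC, -0.021), Dgat1 (diet in Hep-Bmal1KO, 0.0085; sex on cdHFD, -0.0056), Gpam (sex on cdHFD, -0.028; amplitude between genotypes on cdHFD, -0.047), Dgat2 (genotype by sex on cdHFD, -0.0093) and Agpat2 (peak time between genotypes on cdHFD, 0.29 h).

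In females alone, 578, 647 and 153 genes passed for genotype on NC, on cdHFD and by diet, with 0, 2 and 0 members, and on NC Dgat1 (0.11) and Gpam (0.050) turned sign. In males alone, 802 genes and 1 member passed on cdHFD and 1 member by diet, which was Lpin2 (0.78, adjusted p = 0.00783) and neither Lpin1 nor Agpat2. Signs turned there for Tm6sf2 (genotype on NC, -0.094, and on cdHFD, 0.0074; diet, 0.00041 in Hep-Bmal1WT and 0.062 in Hep-Bmal1KO; genotype by diet, 0.11), Lpin2 (genotype on cdHFD, -0.098), Mogat1 (genotype on NC, -0.078; diet in Hep-Bmal1KO, -0.39) and Dgat1 (diet in Hep-Bmal1KO, 0.014).

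Dgat1 also turned sign with genotype on NC under a filter of 10 counts in 24 libraries (0.00078), no filter beyond 1 count (0.0072) and sex as a covariate (0.0020), and with diet in Hep-Bmal1KO under DESeq2 (0.022) and its size factors (0.023). JTK_CYCLE alone called 1049 genes in Hep-Bmal1KO on NC, and 1941 and 983 in Hep-Bmal1WT and Hep-Bmal1KO on cdHFD. By adjusted p under 0.05, 728 and 654 genes were rhythmic in Hep-Bmal1KO on NC and cdHFD, with 0 members on cdHFD, as with the cosinor F test alone (0). By adjusted p, 0 members differed in amplitude between genotypes on NC, on cdHFD or between diets in Hep-Bmal1WT, 0 in peak time on NC, and 2 in mesor on NC. The edgeR curve test named 1 member on NC and 0 on cdHFD.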
